A study of Homo sapiens with 2 samples.

Results

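Near-gene intergenic peaks were the pan-Kcr peaks of crotonate-treated T98G cells that the deposited list annotates as distal intergenic and places no more than 100 kb from the start site of the transcript assigned to them. They numbered 2668 of 10041 listed peaks (26.6%, exact 95% interval 25.7 to 27.4%), and 2668 of the 3093 distal intergenic peaks. The other 425 distal intergenic peaks lay beyond 100 kb. The choice used annotation and distance and no measured height. T98G is an established human glioblastoma line. Its cells were treated for 48 h with crotonate, from which cells can make crotonyl-CoA. The design text gives the dose as 10 µM. No genotype or other agent is named in the sample labels. The peak names carry a tag, pCW, that the sources do not explain. Chromatin was immunoprecipitated with a pan-Kcr antibody (1 ChIP library), against 1 input library of the same treatment. Control cells were not analysed here, so nothing below compares treated with untreated cells. With 1 ChIP library there was no replicate check, and the cell type label could not be set against marker genes, because peak positions give no expression.

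Lysine crotonylation adds a short unsaturated acyl group to lysines of histones and other proteins. On histones it is known from active promoters and enhancers, and it is added by acyltransferases such as p300 and removed by deacetylases. Intergenic DNA holds enhancers, which can act on a start site far along the chromosome and need not act on the nearest gene, but also repeats, pseudogenes and stretches with no known function. A pan-Kcr antibody does not tell which protein carried the mark.

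The near-gene intergenic peaks were low. Their fold enrichment over the background ran from 2.52 to 6.57 with a median of 2.73, and their length from 258 to 1089 bp with a median of 313 bp. Fold enrichment and p together gave back a whole number of ChIP fragments under the summit of every peak and the background in fragments. The summit held 2 fragments in 1991 peaks, 3 in 622, 4 in 49, 5 in 3, and 6, 8 and 10 in 1 each. The recovered background had a lowest value of 0.0999, a median of 0.120 and a highest value of 1.11. Only 75 different fold enrichments occurred, and 823 peaks shared the value of 2.73 that belongs to 2 fragments on the lowest background. The largest p was 0.000987. After the adjustment made by the authors no near-gene intergenic peak had a q under 0.05, the smallest q was 0.0557, and 2055 had a q of 1. Counts this low are imprecise, and peaks next to each other in rank by height are not distinguished.

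**Figure D1:**
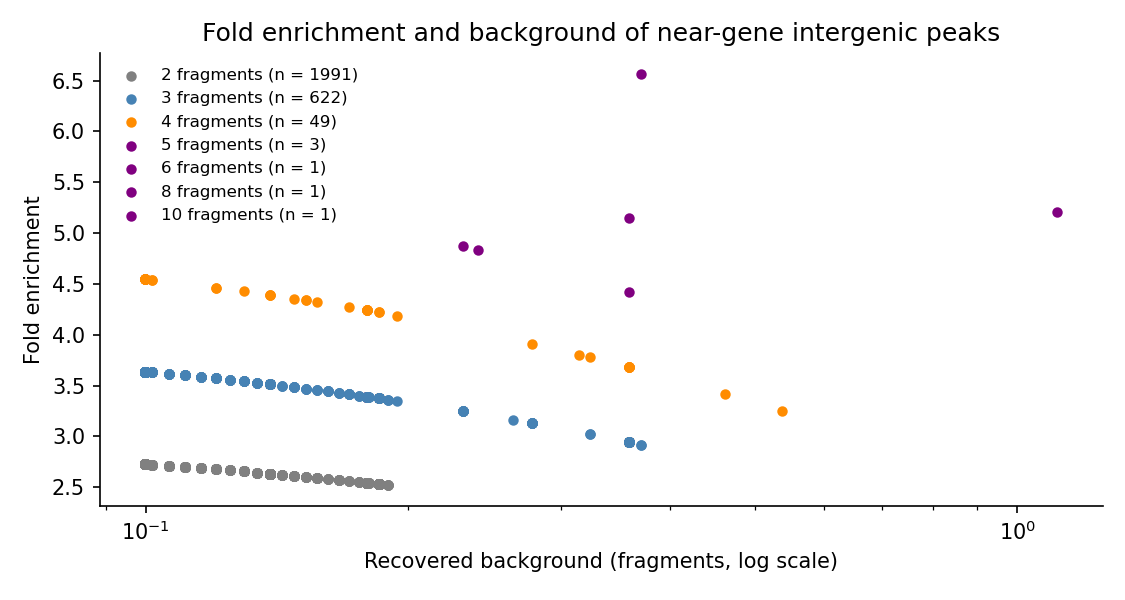
Fold enrichment of each near-gene intergenic peak (vertical axis) against its recovered background in fragments (horizontal axis, log scale), with 1 point per peak coloured by the number of fragments at the summit (5 or more share a colour). Peaks with 2 fragments lie between 2.52 and 2.73, those with 3 between 2.92 and 3.64, and those with 4 between 3.25 and 4.55, and the single peaks of 8 and 10 fragments stand at higher backgrounds.

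Few of these intergenic peaks touched a known start site, and the 2 promoters shown here are those that bear on named peaks. Set against RefSeq promoter windows on GRCh38.p14, which run from 250 bases before to 50 bases after a start, 7 of 2668 peaks overlapped 8 windows and 2661 overlapped none. The only protein-coding gene among them was HTR1D, a serotonin receptor. Its peak lay on chromosome 1 from 23217235 to 23217571 with 2 fragments and a fold enrichment of 2.73, and the deposited list puts it 22.5 kb upstream of another HTR1D start. The peak with the tallest summit among the 7, with 4 fragments and 4.55-fold, lay on chromosome 1 from 84797622 to 84797953. The list assigns it to AC104169.1, 12.2 kb away, and it covered the whole window of the RefSeq gene LOC102724892. Both windows are printed 5′ to 3′ on the strand of the gene, with the bases inside the peak in capitals.
HTR1D promoter window, chr1:23217453-23217752, minus strand: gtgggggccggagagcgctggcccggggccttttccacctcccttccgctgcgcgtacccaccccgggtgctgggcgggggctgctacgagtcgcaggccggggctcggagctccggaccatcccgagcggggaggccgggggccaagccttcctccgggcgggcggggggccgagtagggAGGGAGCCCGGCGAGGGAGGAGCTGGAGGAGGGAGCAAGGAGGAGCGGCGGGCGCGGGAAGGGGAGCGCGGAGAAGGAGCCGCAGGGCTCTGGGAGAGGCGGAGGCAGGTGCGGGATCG
LOC102724892 promoter window, chr1:84797629-84797928, minus strand: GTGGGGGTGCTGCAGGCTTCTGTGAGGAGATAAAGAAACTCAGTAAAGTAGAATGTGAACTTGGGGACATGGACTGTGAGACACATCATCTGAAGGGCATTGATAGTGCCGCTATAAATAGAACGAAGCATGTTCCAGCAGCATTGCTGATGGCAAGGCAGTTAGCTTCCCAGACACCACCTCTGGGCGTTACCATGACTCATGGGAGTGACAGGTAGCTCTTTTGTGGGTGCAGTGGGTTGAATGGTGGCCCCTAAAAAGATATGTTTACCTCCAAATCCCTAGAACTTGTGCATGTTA
In the HTR1D window 119 bases were in the peak (positions 182 to 300), and in the LOC102724892 window all 300. The HTR1D window was 76.7% G or C with 32 CG pairs, the LOC102724892 window 48% with 3, against medians of 58.7% and 14 over 35116 RefSeq windows. Searched on both strands, the HTR1D window held GGGCGG 3 times, with 2 of the copies overlapping, a motif found in 45.0% of all windows. The LOC102724892 window held TATAAA, found in 11.5% of all windows, and 1 site of TGANTCA, which matches itself on the other strand and was found in 7.71%. CCAAT was searched as well (34.6% of all windows) and was in neither. These matches describe the letters and are not evidence of binding.

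MicroRNA genes were the assigned gene of 30 near-gene intergenic peaks at 27 genes, 23 of which were matched in RefSeq. Upstream and downstream peaks were 15 each. Peaks of 3 fragments occurred at 4 of these genes, and the other 26 peaks had 2. The mature sequences of the 4 (RefSeq, GRCh38.p14) are shown with the seed, bases 2 to 8, in capitals, because the seed sets which messenger RNAs a microRNA pairs with.
hsa-miR-4657, chr7:44881778-44881800, minus strand: aAUGUGGAaguggucugaggcau
hsa-miR-3169, chr13:61199848-61199869, minus strand: uAGGACUGugcuuggcacauag
hsa-miR-4675, chr10:20552015-20552036, plus strand: gGGGCUGUgauugaccagcagg
hsa-miR-5702, chr2:226658720-226658741, minus strand: uGAGUCAGcaacauaucccaug
Their fold enrichments were 3.64 at MIR4657, 3.64 at MIR3169, 3.63 at MIR4675 and 3.53 at MIR5702. The peaks lay 12.3 kb downstream of MIR4657, 42.5 kb upstream of MIR3169, 60.5 kb downstream of MIR4675 and 20.7 kb downstream of MIR5702, so none was at the microRNA itself. Another peak with 2 fragments (2.54-fold) lay 6.11 kb downstream of MIR3169. No seed was shared among the 27 mature sequences compared. A microRNA gene can give a mature sequence from each arm of its hairpin. For some matched genes, among them MIR148A, MIR548AD and MIR887, only a single arm was compared. Seeds of the arms left out were not looked at, so a seed shared by these genes is not excluded.

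The number of near-gene intergenic peaks per kb of distance was highest close to start sites. The nearest peaks lay just outside the 3 kb that the annotation counts as promoter, at 3002 bp from AC006296.3, 3008 bp from AC092953.2 and 3020 bp from LINC02578, with 2 fragments each. The median distance of all near-gene intergenic peaks was 22.3 kb. From 3 to 10 kb there were 619 peaks, or 88.4 per kb of distance. From 10 to 25 kb there were 826 (55.1 per kb), from 25 to 50 kb 643 (25.7 per kb) and from 50 to 100 kb 580 (11.6 per kb). The fall in number describes the list and not an enrichment, since the length of intergenic DNA at each distance was not computed. At the limit, the last peaks inside were those of AL049594.1 at 99.871 kb, NEK7, a kinase of mitosis and the inflammasome, at 99.939 kb and AL353709.1 at 99.992 kb. They had 2, 3 and 2 fragments with fold enrichments of 2.73, 3.64 and 2.73. The first peaks outside were assigned to AL049812.2 at 100.118 kb, AC040914.1 at 100.187 kb and PPIAP65 at 100.645 kb, each with 2 fragments, at 2.73, 2.66 and 2.73-fold.

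**Figure D2:**
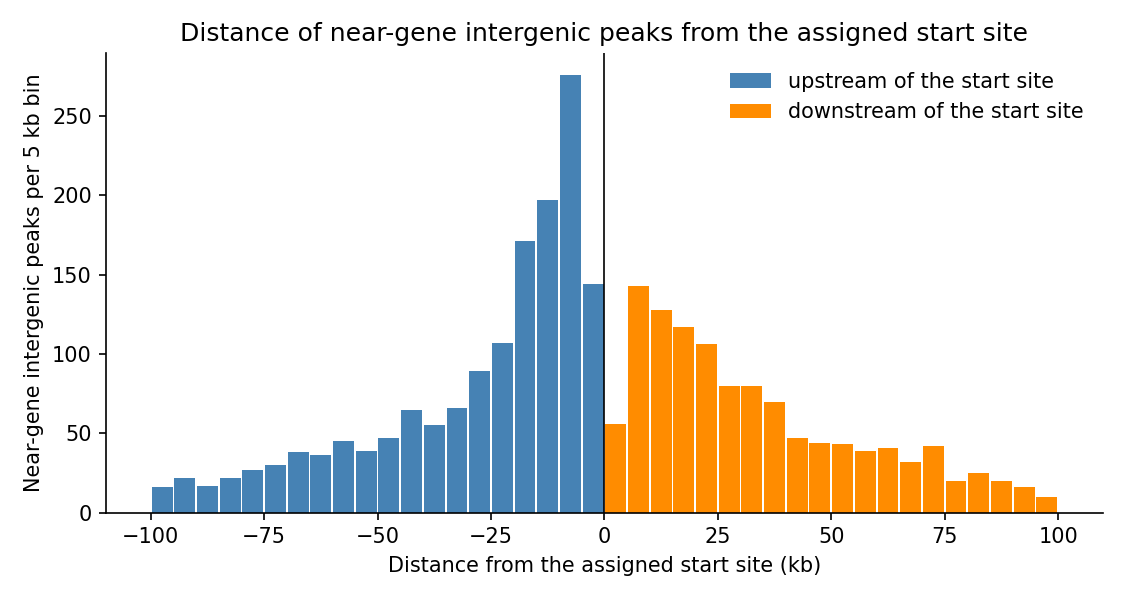
Number of near-gene intergenic peaks in bins of 5 kb (vertical axis) by distance in kb from the assigned start site (horizontal axis), upstream at the left and downstream at the right. From 5 to 10 kb there are 276 peaks upstream and 143 downstream, and the bins next to the start site are low because the nearest 3 kb are annotated as promoter.

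More near-gene intergenic peaks lay upstream than downstream of the assigned start, and the excess was that of the nearest peaks. Upstream were 1509 peaks (56.6%, exact 95% interval 54.7 to 58.5%) and downstream 1159, against 47.8% upstream among the intergenic peaks beyond 100 kb. The difference was 8.79 percentage points (Newcombe 95% interval 3.68 to 13.9). At 3 to 10 kb 67.9% were upstream, at 10 to 25 kb 57.5%, at 25 to 50 kb 50.1% and at 50 to 100 kb 50.3%. The nearest and farthest of these ranges differed by 17.5 points (12.0 to 22.9). Protein-coding genes had 65.4% of their peaks upstream (502 of 768), processed pseudogenes 50.9% (341 of 670), a difference of 14.5 points (9.37 to 19.5). For lncRNA genes the share was 55.0% (442 of 804), and its difference of 4.08 points from processed pseudogenes had an interval from -1.03 to 9.17 that includes 0. Gene length moved with this result: the median length of the assigned transcript was 44.7 kb for upstream and 4.29 kb for downstream peaks of protein-coding genes, and 0.54 and 0.571 kb for those of processed pseudogenes. None of the 1159 downstream peaks lay inside the assigned transcript, which for a long gene leaves no room for a downstream intergenic peak close to the start. How much of the difference this accounts for was not tested.

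No relation of height to distance was detectable at this depth. The share of peaks with 3 or more fragments was 26.3% at 3 to 10 kb, 25.5% at 10 to 25 kb, 24.6% at 25 to 50 kb and 25.0% at 50 to 100 kb. Between the nearest and the farthest range it differed by 1.33 points, with an interval from -3.62 to 6.26. Over all near-gene intergenic peaks the share was 25.4% (exact interval 23.7 to 27.1%), against 22.4% beyond 100 kb (difference 3.02 points, -1.48 to 7.09). It was 27.4% at promoter peaks (difference -2.04, -4.55 to 0.456) and 25.9% over all other listed peaks (difference -0.53, -2.44 to 1.42). Upstream peaks had 26.0% and downstream peaks 24.6% (1.39 points, -1.96 to 4.69). Peaks assigned to protein-coding genes had 26.4% and those assigned to other genes 24.9% (1.48 points, -2.11 to 5.23). Every one of these intervals includes 0 and also differences of several points, so the groups are not shown to be alike.

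**Figure D3:**
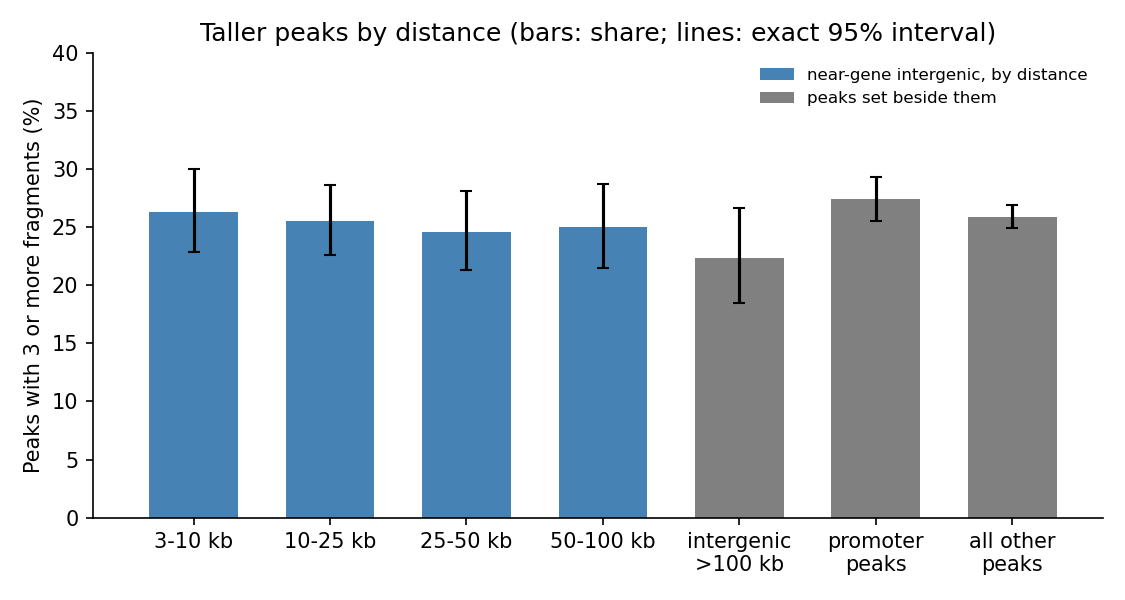
Share of peaks with 3 or more fragments in percent (vertical axis) for near-gene intergenic peaks in 4 ranges of distance and for 3 sets of listed peaks beside them, the last being all peaks that are not near-gene intergenic. Bars are shares and lines exact 95% binomial intervals, and the 4 ranges lie between 24.6 and 26.3%.

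The background under the peaks did differ between classes. The lowest background of the list was that of 38.5% of near-gene intergenic peaks, against 33.8% of promoter peaks (4.67 points, 1.94 to 7.38) and 35.6% of all other peaks (2.81 points, 0.678 to 4.97). Beyond 100 kb it was 40.7%, and the difference of -2.25 points (-7.32 to 2.68) includes 0. The background is known here only at listed peaks, and at equal fragments a lower background gives a higher fold enrichment, so fold enrichments of peak classes are compared above by fragments.

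By kind of assigned gene, lncRNA genes came first with 804 near-gene intergenic peaks (30.1%), then protein-coding genes with 768 (28.8%) and processed pseudogenes, copies of messenger RNAs put back into the genome, with 670 (25.1%). Small nuclear RNA genes had 93, miscellaneous RNA genes 91, unprocessed pseudogenes 53, and microRNA and small nucleolar RNA genes 30 each. The protein-coding share was 14.0 points (9.90 to 17.5) above that beyond 100 kb, which was 14.8%. The processed pseudogene share was lower than the 34.1% beyond 100 kb (difference -9.01 points, -13.9 to -4.34). The lncRNA share beyond 100 kb was 32% (difference -1.87, -6.75 to 2.74). Within the near-gene class the protein-coding share also depended on distance, with 34.9% at 3 to 10 kb against 18.1% at 50 to 100 kb (16.8 points, 11.8 to 21.6). No set of random positions was drawn, so these shares were not set against the layout of genes.

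**Figure D4:**
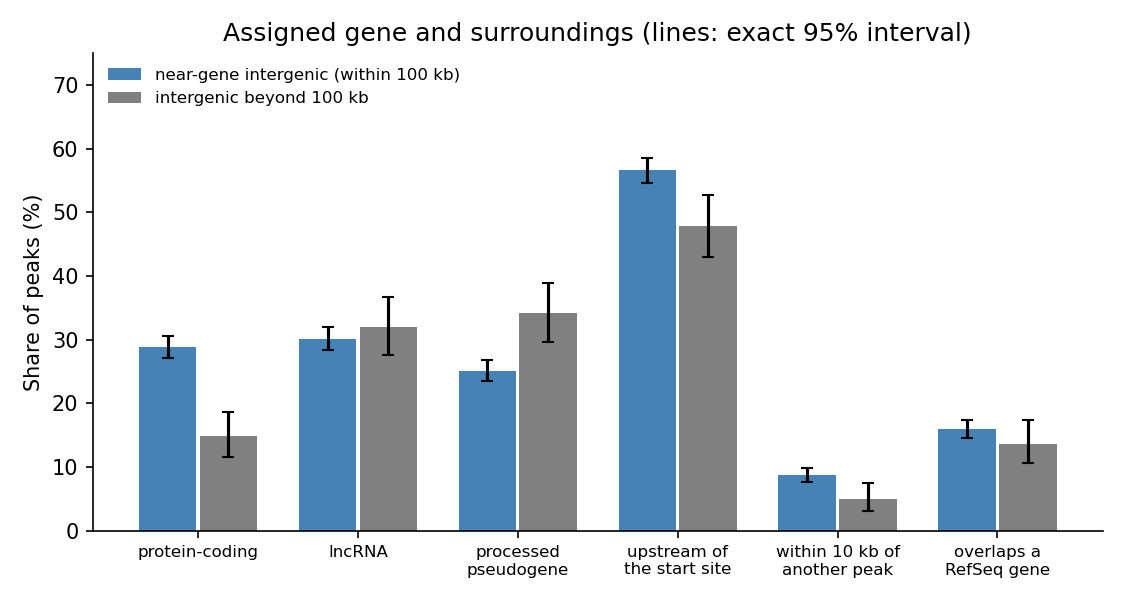
Share of peaks in percent (vertical axis) by kind of assigned gene, position and surroundings, for near-gene intergenic peaks (left bar of each pair, n = 2668) and intergenic peaks beyond 100 kb (right bar, n = 425), with exact 95% binomial intervals as lines. Near-gene peaks have the higher protein-coding share (28.8% against 14.8%) and the lower processed pseudogene share (25.1% against 34.1%), while the lncRNA shares have overlapping intervals.

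The assigned gene was often not a protein-coding gene although the span of 1 lay within 100 kb. A RefSeq protein-coding gene was within 100 kb of 62.7% of the near-gene intergenic peaks, and the median distance to the nearest was 55.4 kb. These distances run to the nearest edge of the gene, while that to the assigned gene runs to a start site. The 100 kb is thus an unlike measure for each. Of the 1900 peaks assigned to another kind of gene, 910 (47.9%) had such a gene within 100 kb. Some peaks were intergenic only in the annotation the authors used: 424 (15.9%) overlapped a RefSeq gene, against 13.6% beyond 100 kb (2.25 points, -1.59 to 5.52), and 94 (3.52%) a protein-coding gene, against 0.706% (2.82 points, 1.33 to 3.72). The classes are split by distance to an assigned start site, and how much of these differences the split itself brings was not tested. The overlaps are counts of annotation and say nothing on which gene a region acts.

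The tallest near-gene intergenic peaks were 55 with 4 or more fragments (2.06%, exact 95% interval 1.56 to 2.67%), against 1.41% (0.520 to 3.05%) beyond 100 kb and 2.65% (2.01 to 3.42%) at promoters. Their fold enrichments ran from 3.25 to 6.57. They were assigned to protein-coding genes in 18 cases, lncRNA genes in 13, processed pseudogenes in 13 and other kinds in 11, with 28 upstream and 27 downstream. Their median distance was 22.1 kb. They lay on 15 chromosomes, 10 on chromosome 1 and 7 on chromosome 20.

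The 2 peaks with most fragments were both assigned to AC242852.1, an unprocessed pseudogene on chromosome 1. One held 8 fragments at 6.57-fold, 79.5 kb upstream, from 143263402 to 143263720. The other held 10 at 5.21-fold, 96.0 kb upstream, from 143246862 to 143247221. Their recovered backgrounds were 0.37 and 1.11, above the median of 0.120, and the part of local background in them was not tested. Next came LINC00659 on chromosome 20, with 6 fragments and 5.15-fold at 5.95 kb downstream, on a background of 0.359. IQCA1, a part of the complex that regulates dynein in cilia, had 5 fragments at 4.87-fold, and LINC01117 had 5 at 4.84-fold, 52.3 kb upstream. The IQCA1 peak on chromosome 2 from 236320336 to 236320891 lies 11.2 kb downstream of its assigned start and inside the RefSeq span of the same gene. The remaining places among the 10 highest fold enrichments went to 5 of the 15 peaks that tied at 4.55-fold (4 fragments, lowest background). They were those of AC104169.1, CSF1, AL591504.2, U3 and SMIM20, ordered by position alone.

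Among protein-coding genes 18 peaks held 4 or more fragments. Those named here came next after that of IQCA1 in fold enrichment, all with 4 fragments on a background at or near the lowest. Others of the 18 also had 4 fragments, on higher backgrounds. CSF1, the growth factor of macrophages, had its peak 3.49 kb upstream, on chromosome 1 from 109906366 to 109906750, and another RefSeq gene lay 0.473 kb from it. PXN, the gene of paxillin, an adaptor of focal adhesions, had one 4.36 kb upstream on chromosome 12. C2CD2 had one 3.15 kb upstream on chromosome 21. These 3 lay close beyond the promoter limit. FABP6, a bile acid binding protein of the ileum, had a peak 22.1 kb upstream, and CUX1, a homeobox transcription factor, 61.4 kb upstream. SMIM20, a small mitochondrial protein, had one 47.2 kb downstream. FTO, an RNA demethylase, had one 15.5 kb downstream of the assigned start but 43.2 kb from the RefSeq span of FTO itself. All of these had 4.55-fold. MAP3K21, a mixed-lineage kinase, at 15.3 kb downstream, and FHIT, a hydrolase of diadenosine triphosphate whose gene spans a fragile site, at 56.2 kb upstream, had 4.54-fold on a slightly higher background. No peak of these 10 genes had a q under 0.05.

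Near-gene intergenic peaks were spread over 2358 genes. Of these 2092 had 1 peak, 229 had 2, 31 had 3, 5 had 4 and 1 had 5. Protein-coding genes were 703, of which 55 had 2 or more. The gene with 5 was RNU6-461P, a pseudogene of the U6 spliceosomal RNA on chromosome 3, with peaks of 2 or 3 fragments between 94.3 kb upstream and 17.0 kb downstream. AL645944.1, AC073387.2 and CARS1P2, all processed pseudogenes, had 4 each. So had ALX4, a homeobox transcription factor of skull development.

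At ALX4 on chromosome 11 all 4 lay upstream, at 11.5, 19.4, 58.7 and 68.5 kb. Their fold enrichments were 2.54, 2.63, 2.54 and 2.63, with 2 fragments each. A listed peak in an intron was also assigned to ALX4.

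FHIT on chromosome 3 had 3 peaks, 29.3, 56.2 and 58.2 kb upstream, with 2, 4 and 2 fragments. The last 2 lay 1670 bp apart. CBLN4, a secreted organiser of synapses, had 3 peaks on chromosome 20, with 4 fragments (4.46-fold) at 65.9 kb downstream and 3 each (3.38-fold) at 47.0 and 82.6 kb upstream. All 3 thus held 3 or more fragments, and CBLN4 also had a listed intron peak. Such heights were frequent on chromosome 20, where 38.3% of near-gene intergenic peaks had 3 or more fragments, against 25.4% of all. An Rfam copy of SNORD116 on chromosome 13 had 3 peaks upstream of 2, 3 and 4 fragments, at 44.0, 76.0 and 80.8 kb, and AC080079.2 had 3 of 3, 2 and 2 fragments, at 40.8, 47.0 and 48.0 kb upstream.

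Other protein-coding genes with 3 peaks included RERGL, which resembles a Ras-related GTPase, PDZRN4 and TRIO, a guanine nucleotide exchange factor. Their peaks had 2 or 3 fragments. Close pairs were rare: counting successive near-gene intergenic peaks only, 101 pairs lay within 10 kb of each other and 6 within 1 kb. Of the 6, 5 had 2 fragments in both peaks. Among the 6 were pairs at EIF4EBP2P1 (404 bp), LINC01777 (449 bp), EXTL2P1 (587 bp), AC080079.2 (663 bp) and AC073387.2 (835 bp). Counting any listed peak, 232 near-gene intergenic peaks (8.70%) had a neighbour within 10 kb, against 4.94% beyond 100 kb (3.75 points, 1.06 to 5.78). At promoter peaks the share was 8.97% (difference -0.27, -1.90 to 1.33) and over all other peaks 8.08% (0.61, -0.59 to 1.89). Among peaks with a −log10 p of 4 or more the near-gene share was 2.45%, in a sparser list.

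Peaks of other classes at the same genes were counted too. Of the 2358 genes 391 had another listed peak of any class and 1967 none. A promoter peak was present at 93 (3.94%) and an intron peak at 194. Of the 703 protein-coding genes 57 (8.11%) had a promoter peak and 121 an intron peak. Over all protein-coding genes 17.2% had a listed peak of any class, near-gene intergenic peaks included, so that share is no base for these counts. The share of all genes with a promoter or an intron peak was not computed, and these counts were not tested against other genes.

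Gene lists grouped some of the assigned protein-coding genes by family or function. Over all 20056 RefSeq protein-coding genes 703 (3.51%) had a near-gene intergenic peak, with a median fold enrichment of 2.73 over their 768 peaks, and this is the share to hold beside each list. Counts per list were small and their exact intervals wide. None of 19 crotonylation genes that the paper names had one, which allows a share of up to 17.6% by the exact interval, although 4 had a listed peak of some class. Glioma driver genes had one in 2 of 36, at the receptor tyrosine kinase gene EGFR (2.63-fold, 23.2 kb upstream) and at PIK3R1, a regulatory subunit of phosphoinositide 3-kinase (2.54-fold, 22.9 kb downstream).

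Of 68 neural and glial transcription factors 2 (2.94%) had a peak, MYT1L, a factor of neuronal identity, with 3 fragments (3.39-fold, 48.9 kb upstream) and TCF7L2, an effector of Wnt signaling, with 2 (2.70-fold). Of 51 AP-1, immediate early and mesenchymal factors 2 (3.92%) had one, IER5, an immediate early gene, with 3 fragments (3.51-fold, 41.8 kb downstream) and SNAI1, a repressor of E-cadherin, with 3 (3.44-fold, 18.5 kb downstream). Of 509 ZNF genes 9 had one (1.77%, exact interval 0.812 to 3.33%), below the share of all protein-coding genes. Highest in fold enrichment were ZNF704 (3.64), ZNF510 (3.53), ZNF707 (3.51) and ZNF717 (2.73), and 3 of the 9 peaks had 3 or more fragments. A listed peak of any class was also rarer at ZNF genes, in 12.0% against 17.2% of all protein-coding genes.

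Among secreted ligands and their receptors, 9 of 97 growth factor and morphogen genes had a near-gene intergenic peak (9.28%, exact interval 4.33 to 16.9%). After CSF1 they were led by WNT5B, a Wnt ligand, with 3.56-fold at 4.68 kb upstream, PDGFD, a platelet-derived growth factor, with 3.39-fold at 39.2 kb upstream, and WNT7A, another Wnt ligand, with 2.94-fold at 70.9 kb downstream and 3 fragments each. Of 66 chemokine ligand and receptor genes 4 had one, all with 2 fragments, at the receptors CXCR4 and ACKR3 and the ligands CCL2 and CCL20. Their fold enrichments were 2.73, 2.63, 2.73 and 2.54. Of 63 TNF and NF-κB signaling genes 5 had one (7.94%), at CSF1, MAP3K7, MAP3K5, CREB5 and TNFSF13B, and all but that of CSF1 had 2 fragments. Peaks of any class were listed at 27.8% of the growth factor and morphogen genes and 25.4% of the TNF and NF-κB genes. The share was 9.09% for the chemokine genes and 17.2% for all protein-coding genes.

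Among the 15 lists the largest share was that of cadherins and neuronal adhesion molecules, with 12 of 73 genes (16.4%, exact interval 8.79 to 27.0%). CDH9 had 3.64-fold at 18.7 kb upstream and CDH4 3.43-fold at 77.2 kb upstream, both with 3 fragments. NFASC, at the node of axons, and TENM2, a teneurin, had 2.73-fold with 2 fragments, and 10 of the 12 peaks had 2 fragments. Any listed peak was also more frequent there, in 47.9% of the genes against 17.2% of all protein-coding genes. The part of this in the count was not tested. Potassium channel genes had one in 9 of 95 (9.47%), among them KCNK9, a leak channel, with 4 fragments and 4.34-fold at 21.9 kb downstream. KCNH7, KCNQ1 and KCNG1, voltage-gated channel subunits, followed with 3.64, 3.60 and 3.38. Any listed peak was present at 31.6% of potassium channel genes.

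Axon guidance genes had one in 7 of 75, with no peak above 2 fragments, led by NTNG2, EFNB1, ROBO1 and RGMB at 2.73, 2.73, 2.68 and 2.68-fold. Matrix genes had one in 4 of 87, ADAMTS3, ADAMTS5, MMP13 and FBN1, and collagen genes in 3 of 44, COL21A1, COL28A1 and COL5A1, all with 2 fragments. Solute carrier genes had one in 19 of 379 (5.01%). Highest in fold enrichment were SLC6A11, a GABA transporter, and SLC39A6, a zinc transporter, at 3.64. SLC9A2, a sodium proton exchanger, and SLC2A3, a glucose transporter, followed at 3.39. Of the 20 solute carrier peaks 6 had 3 or more fragments. Olfactory receptor genes, silent in most tissues, had one in 11 of 390 (2.82%), led by OR2L13 at 3.64, OR4C16 at 3.39, OR51E2 at 2.94 and OR2M4 at 2.73. Peaks of any class were listed at 40% of axon guidance genes, 32.2% of matrix genes and 40.9% of collagen genes. For solute carrier genes the share was 21.9% and for olfactory receptor genes 7.95%, against 17.2% of all protein-coding genes. The part of this in the counts was not tested, and no list was tested.

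By chromosome, near-gene intergenic peaks took from 15.5% of the listed peaks on chromosome 22 and 15.7% on chromosome 19 to 34.2% on chromosome 4, 35.1% on chromosome 13 and 35.4% on X. On Y they were 1 of 8. Over the 22 autosomes and X, the share ran against the density of protein-coding genes (Spearman correlation -0.50, n = 23 chromosomes, a description only, as all come from 1 library). The number of near-gene intergenic peaks per Mb, taken over the span from first to last listed peak, had a Spearman correlation of 0.139 with gene density and 0.462 with the other listed peaks per Mb, and both measures in each pair share that span. It was highest on chromosome 20 (2.32 per Mb) and was 0.373 on X. All listed peaks together were also densest on chromosome 20, at 7.42 per Mb.

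**Figure D5:**
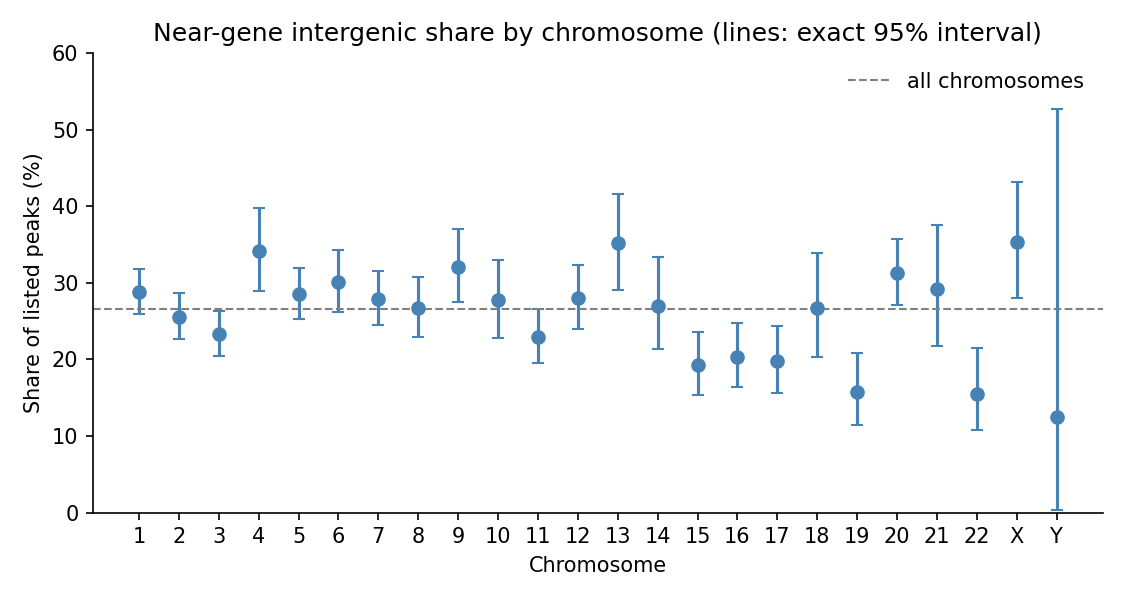
Share of listed peaks that are near-gene intergenic, in percent (vertical axis), for each chromosome (horizontal axis), with exact 95% binomial intervals as lines and the share over all chromosomes, 26.6%, as the dashed line. Chromosomes 19 and 22 lie low at 15.7 and 15.5%, chromosomes 4, 13 and X high at 34.2, 35.1 and 35.4%, and Y rests on 8 peaks.

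Chromosome 20 held 149 near-gene intergenic peaks, or 5.58% of them, against 4.44% of all other listed peaks (1.15 points, 0.201 to 2.19). Against promoter peaks (5.07%) the difference was 0.52 points (-0.77 to 1.78) and against peaks beyond 100 kb (4%) 1.58 points (-0.86 to 3.34). Of the 149, 38.3% had 3 or more fragments, and their mean recovered background was 0.170, against 15.5% and 0.112 on X. Number, height and background were thus all high on that chromosome, and the part of the background in the number was not tested. The share there was 4.40% among peaks at or above the median fold and 8.42% among those with 3 or more fragments.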

How the data were processed

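Pan-Kcr ChIP-seq of crotonate-treated T98G cells (1 ChIP and 1 input library) was read from the peak table deposited by the authors. The authors made its columns of fold enrichment, a ratio over background, and of −log10 p-value and q-value, with genomic class and assigned gene. For aligner, caller, threshold and build the entry is: not given in the sources used here. Of 8842 assigned transcripts, 1214 had the same span as a RefSeq gene on GRCh38.p14, which was therefore used.

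Members and gene lists were chosen with earlier results of these data known. Fragments n and background b were solved from fold = (n + 1)/(b + 1) and a Poisson p, with −log10 p matched to within 6.52e-05. In 5000 simulated peaks 99.98% were recovered. Those peaks were made with the same formulas, so this checks the solving and not whether the deposited columns follow them. Total reads were not analysed here, so depth is known only from these fragments. Shares have exact (Clopper-Pearson) and differences Newcombe 95% intervals, which cover counting error over peaks of 1 library. Of 25 differences 11 excluded 0, with no adjustment. No test was made.

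Genes named were those of the 10 peaks highest in fold enrichment and of the 10 highest among protein-coding genes. Added were the 10 genes with most peaks and up to 4 per list (15 lists, all members where few). Genes at the distance limits and of close pairs were named too. HTR1D, the microRNAs, further genes with 3 peaks and pairs at other genes were named after their values were seen. Some genes that the rule names are not reported here. Alternatives were stricter fold or p, merging, no chromosome Y, and limits of 50 and 200 kb, and 2 were added after seeing the data (3 or more fragments, no chromosome 20). Control cells, reads and coverage were not analysed here. Python 3.11.15, pandas 2.3.3, scipy 1.17.1, statsmodels 0.14.6 and matplotlib 3.10.9 were used.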

Additional observations from a re-analysis of the deposited data

How the results depend on the processing

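Merging peaks within 1 kb and leaving out chromosome Y (9 results each) or chromosome 20 (8 results) moved none of the summary values beyond its counting interval, or beyond 1.5 times for counts. Dropping peaks under the median fold enrichment left 1500 near-gene intergenic peaks (27.5% of those listed) at 1401 genes, with 45.1% at 3 or more fragments, 4.40% on chromosome 20 and 4.67% within 10 kb of another peak. What this filter removes are 2-fragment peaks on higher backgrounds. A −log10 p of 4 or more left 612 at 594 genes, 59.0% upstream, 100% with 3 or more fragments, 8.01% on chromosome 20, 2.45% within 10 kb of another peak and a median fold of 3.58. Keeping 3 or more fragments, added after seeing the data, left 677 at 653 genes, 8.42% on chromosome 20, 3.55% within 10 kb of another peak and a median fold of 3.54. Lower neighbour shares follow partly from fewer peaks, and other causes were not tested. A limit of 50 kb gave 20.8% of listed peaks and 31.8% assigned to protein-coding genes, and a limit of 200 kb 29.8% of listed peaks, as the definition brings. Of the 15 gene lists, none moved with 50 kb and 9 fell by more than 1.5 times with the fold filter. Among them glioma drivers fell from 2 genes and collagens from 3 to 0. The whole class also fell by more than 1.5 times with this filter, from 2668 to 1500 peaks and from 2358 to 1401 genes. Whether any list fell more than the class was not tested. No paired analysis was possible because only a single ChIP library was analysed. Depth limits every single peak, as 1991 of 2668 rest on 2 fragments.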

Other observations

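Small RNA genes and their copies recurred among the assigned genes of the near-gene intergenic peaks, but not more than beyond 100 kb. Small nuclear RNA genes took 3.49% and miscellaneous RNA genes 3.41% of near-gene intergenic peaks, against 4.71% and 4.24% beyond 100 kb. Over all other listed peaks the shares were 1.95% and 1.98%. The share of all near-gene intergenic peaks with 3 or more fragments, to hold beside the counts below, was 25.4%. The families below were picked after the assigned genes were seen. U6 RNA genes and pseudogenes (RNU6) were assigned to 58 peaks at 50 genes, 14 of them with 3 or more fragments and the tallest at 3.68-fold. 7SL copies, from the RNA of the signal recognition particle, had 47 peaks at 39 genes (10 with 3 or more fragments). Copies of 5S ribosomal RNA had 26 peaks at 21 genes (7 with 3 or more, highest fold enrichment 4.27). 7SK copies, from the RNA that holds the elongation factor P-TEFb inactive, had 19 peaks at 18 genes (7 with 3 or more), and Y RNA copies 15 peaks at 15 genes (4 with 3 or more). The symbol Y_RNA alone stood for 13 gene identifiers on 9 chromosomes, so symbols were not used to count genes.

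Pseudogenes of ribosomal proteins made up 72 of the 670 peaks assigned to processed pseudogenes (10.3%), at 58 genes, with fold enrichments from 2.53 to 4.24 and 3 or more fragments in 23. All these peaks lie at least 3 kb from the assigned start, so they are not peaks on the copies themselves. The shares were not set against the number of such copies in the genome.

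Peaks assigned to processed pseudogenes had 3 or more fragments in 28.4% (exact 95% interval 25.0 to 31.9%), those assigned to lncRNA genes in 21.6% (18.8 to 24.7%), a difference that was noticed in these data and not tested.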
